A study of Homo sapiens with 4 samples.

Results

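Glutamate receptor genes were compared between SK-N-SH cells exposed to the dioxin TCDD and cells given its solvent alone. The group comprises the 6 genes GRIA1, GRIA2, GRIK3, GRM2, GRM6 and GRM7, out of 6574 genes with a name of their own in the table. A member was any array feature that the platform annotation assigns to 1 gene symbol among these 6, and each gene had 1 such feature. SK-N-SH is an established human neuroblastoma line, which the labels list under brain. It was kept for 24 h in TCDD at 1e-10 M dissolved in dimethyl sulfoxide (DMSO), or in DMSO without TCDD. Each condition was measured on 2 Affymetrix Human Transcriptome Arrays, and the solvent was common to all 4. The titles name biological replicates, but nothing says that the arrays of a condition came from separate cultures, so the p-values measure only the spread between these arrays. The table covered features of chromosomes 1 to 5, and glutamate receptor genes of other chromosomes were not analysed here.

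Glutamate is the main excitatory transmitter of the brain and acts on ion channels and on receptors coupled to G proteins. The ionotropic receptors are tetrameric channels: GRIA1 and GRIA2 encode subunits of the AMPA type, which carries fast excitatory currents, and GRIK3 encodes a subunit of the kainate type. The metabotropic receptors GRM2, GRM6 and GRM7 signal through inhibitory G proteins. GRM2 and GRM7 act largely at nerve terminals, where they limit transmitter release, and GRM6 is known for its role in ON bipolar cells of the retina. TCDD binds the aryl hydrocarbon receptor (AhR), which pairs with ARNT and binds DNA at the core GCGTG.

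That core was looked for in the 250 bases before each start site of the 6 genes in RefSeq (GRCh38.p14), on both strands, as GCGTG or its reverse complement CACGC. All 6 genes had an entry, with 9 windows in all, and 3 windows of 3 genes held the core. Of 35116 windows of the same length for all genes, 32.2% held it. The longer form TNGCGTG, which contains the core, occurred in 1 member window, that of GRIA2, and in 4.52% of all windows. The 3 windows that hold the core are printed 5′ to 3′ with the core in capitals, because they are the places in these promoters where the letters read by the TCDD-bound receptor occur.
GRIA2, chr4:157220369-157220618, plus strand: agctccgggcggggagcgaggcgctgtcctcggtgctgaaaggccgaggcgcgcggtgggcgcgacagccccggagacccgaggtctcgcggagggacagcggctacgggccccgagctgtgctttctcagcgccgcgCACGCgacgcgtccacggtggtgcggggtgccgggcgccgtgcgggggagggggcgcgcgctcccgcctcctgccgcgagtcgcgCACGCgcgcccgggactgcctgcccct
GRIK3, chr1:37034516-37034765, minus strand: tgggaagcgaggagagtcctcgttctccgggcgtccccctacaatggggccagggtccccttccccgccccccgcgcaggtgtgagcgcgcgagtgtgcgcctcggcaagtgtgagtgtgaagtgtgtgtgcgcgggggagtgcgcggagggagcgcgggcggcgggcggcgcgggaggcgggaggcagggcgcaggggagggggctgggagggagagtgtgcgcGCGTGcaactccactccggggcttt
GRM7, chr3:6860865-6861114, plus strand: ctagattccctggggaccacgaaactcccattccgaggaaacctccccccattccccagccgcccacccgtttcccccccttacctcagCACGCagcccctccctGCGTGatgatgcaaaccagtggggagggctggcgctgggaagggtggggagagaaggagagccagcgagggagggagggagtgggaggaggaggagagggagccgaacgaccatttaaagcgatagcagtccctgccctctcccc
The GRIA2 window belongs to the most downstream of 3 annotated start sites, and both of its matches lie on the opposite strand, 112 and 27 bases before the start. The GRIK3 match begins 25 bases before the start. GRM7 has a match on each strand, 161 and 145 bases before its start. The windows of GRIA1, GRM2 and GRM6 and the other windows of GRIA2 held no match. A match describes letters only and is not a measured binding site.

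None of the 6 glutamate receptor genes was called as changed between TCDD and DMSO. Values are log2 signals as the authors deposited them, a difference was taken as TCDD mean less DMSO mean, and a call is an adjusted p under 0.05 in limma's moderated test over all 13493 features. At that threshold 17.4% of all features were called, 9.41% higher and 8.01% lower, against 0 of 6 members. Among the 1338 protein-coding features whose mean signal lay in the members' range, 7.79 to 8.83, 13.5% were called. Differences of the members ran from -0.13 to 0.15, with a median of -0.015, beside a median of 0.0079 for the protein-coding features in that range and 0.023 for all features. Their standard errors (SE) were 0.050 to 0.059, close to the median SE of 0.058 over all features. With these errors a member needed a difference of 0.19 to 0.22, or 1.14-fold to 1.17-fold, to be called. Smaller differences were not detectable as calls with 2 arrays a group. The outermost bounds of the members' 95% intervals were 0.836-fold and 1.22-fold.

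**Figure D1:**
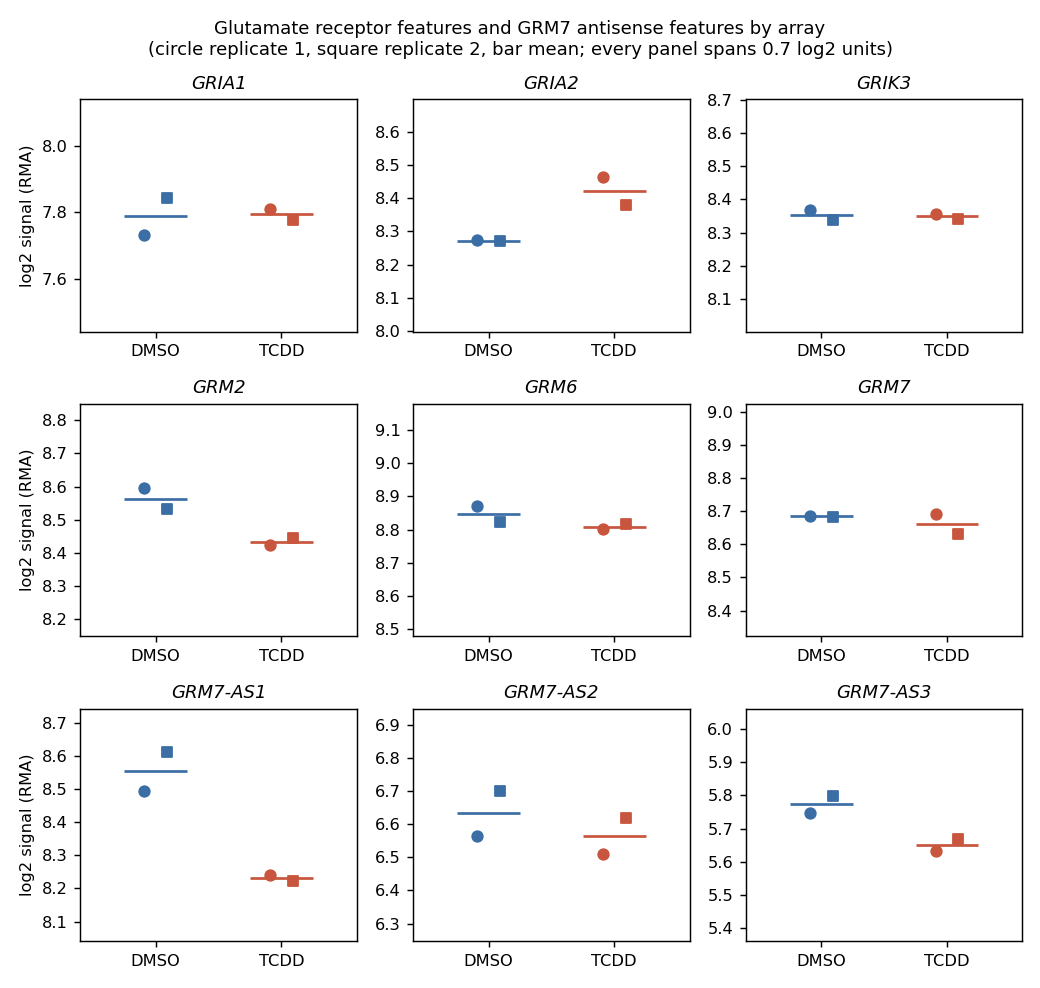
Log2 signal of each of the 6 glutamate receptor features and the 3 antisense features of GRM7 on the 4 arrays, with circles for replicate 1, squares for replicate 2 and bars for group means. Every panel spans the same range of log2 units around its own mean. GRIA2 sat higher on both TCDD arrays. GRM2, GRM6, GRM7-AS1 and GRM7-AS3 sat lower on both, GRM6 by a small gap. The groups of GRIA1, GRIK3, GRM7 and GRM7-AS2 overlapped.

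Neither AMPA receptor subunit gene passed the test, and the 2 genes were not tested against each other. GRIA2 encodes the subunit whose RNA is edited so that the channel passes little calcium. It read 8.27 on both DMSO arrays, and 8.47 and 8.38 on the TCDD arrays. Both TCDD values lay above both DMSO values, and the replicates stood 0.0012 apart in DMSO and 0.084 apart in TCDD. The difference was 0.15 (SE 0.055, 95% interval 0.019 to 0.28), or 1.11-fold, with an unadjusted limma p of 0.0314 and an adjusted p of 0.0963, which did not pass. Each left-out array gave a difference on the same side, from 0.11 without TCDD replicate 1 to 0.19 without TCDD replicate 2. GRIA1 encodes the subunit known for activity-dependent delivery to synapses. It read 7.73 and 7.84 in DMSO, and 7.81 and 7.78 in TCDD. The TCDD values fell between the DMSO values. The difference was 0.0059 (SE 0.059, interval -0.14 to 0.15, limma adjusted p = 0.947), and it took either sign as arrays were left out.

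GRIK3, which encodes a kainate receptor subunit of low glutamate affinity, had the smallest difference of the 6. It read 8.37 and 8.34 in DMSO, and 8.35 and 8.34 in TCDD. All 4 values lay within the DMSO pair. The difference was -0.0053 (SE 0.050, interval -0.13 to 0.12, limma adjusted p = 0.944), and 2.31% of all features had a smaller one. Its sign turned under quantile normalization (0.0046) and median centring (0.0049).

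The 3 metabotropic genes all had lower means in TCDD, by amounts that did not pass. GRM2, a group II receptor that dampens release of glutamate, read 8.60 and 8.53 in DMSO, and 8.42 and 8.44 in TCDD. Both TCDD values lay below both DMSO values. The difference was -0.13 (SE 0.053, interval -0.26 to -0.0012), or 0.914-fold, with an unadjusted limma p of 0.0485 and an adjusted p of 0.125. It ranged from -0.16 without DMSO replicate 2 to -0.097 without DMSO replicate 1.

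GRM6, a group III receptor, read 8.87 and 8.82 in DMSO, and 8.80 and 8.82 in TCDD. The groups did not overlap, but the gap between the nearest arrays was smaller than the gap of 0.048 within the DMSO pair. The difference was -0.038 (SE 0.051, interval -0.16 to 0.087, limma adjusted p = 0.600), and -0.089 after cyclic loess normalization. It ranged from -0.062 without DMSO replicate 2 to -0.014 without DMSO replicate 1. GRM7, the other group III receptor and a gene of wide expression in the nervous system, read 8.69 and 8.68 in DMSO, and 8.69 and 8.63 in TCDD. The groups overlapped. The difference was -0.025 (SE 0.052, interval -0.15 to 0.10, limma adjusted p = 0.739), and 0.0049 without TCDD replicate 2.

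Counts over the 6 genes lay near or under those of the table. The groups did not overlap for 3 of the 6, 1 higher and 2 lower in TCDD, against 71.7% of all features (40.7% higher, 30.9% lower) and 76.9% of protein-coding ones. An unadjusted limma p under 0.05 was reached by 2 of the 6, GRIA2 higher and GRM2 lower, against 39.5% of all features (22.8% higher, 16.7% lower). With a change of at least 1.2-fold required as well, 0 of the 6 passed, against 14.7% of all features. No member was called under any of the alternative normalizations, filters, priors or left-out arrays that were run. GRIA2 and GRM2 kept their direction in all of them.

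**Figure D2:**
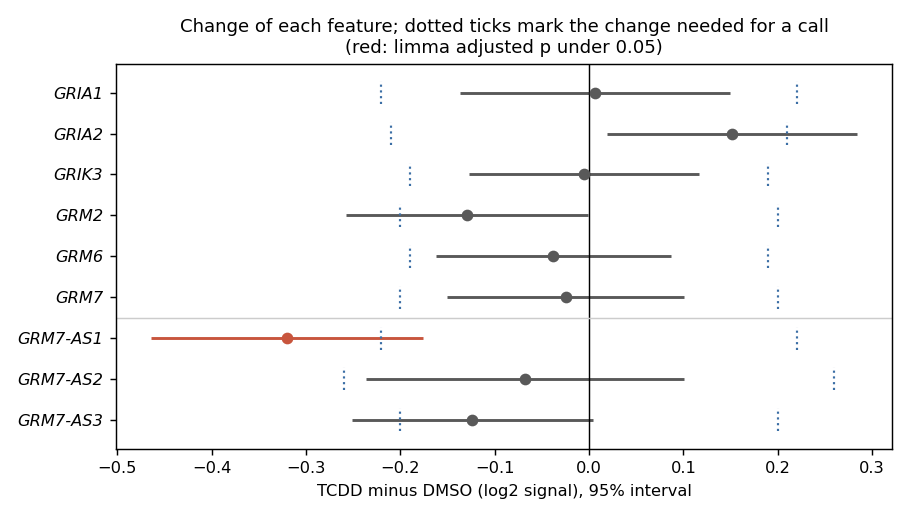
Difference between TCDD and DMSO in log2 signal with its 95% interval for the 6 glutamate receptor features and the 3 GRM7 antisense features, with dotted ticks at the difference each feature needed to be called. Intervals of GRIA2 and GRM2 left out 0 but their points lay inside the ticks, and GRM7-AS1 alone lay beyond its tick.

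Signals of different features cannot be ranked as amounts of RNA, because probe sets differ in number and affinity. As a guide to dim signals, 71 olfactory receptor features, genes that are mostly silent outside the nose, had a median of 7.00 and a 95th percentile of 8.38. GRIA1 (7.79), GRIA2 (8.35) and GRIK3 (8.35) had mean signals under that percentile, and GRM2 (8.50), GRM7 (8.67) and GRM6 (8.83) lay over it. Neuroblast genes of the same table were brighter, with 6 features between 9.54 and 11.54, among them the transcription factor genes HAND2 (11.54) and ISL1 (11.35). Of the mature glutamatergic neuron markers, TBR1 (7.86) lay in the range of the receptors and CAMK2A (8.86) just above it. Markers of other cell types spanned that range as well. Immune-cell features had mean signals of 6.18 to 9.25, and retinal ones of 6.97 to 8.93. A signal over the olfactory percentile is therefore not evidence of expression. Whether the receptor signals stand above background was not tested, since no detection values were used here.

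Arrays differed little in level and somewhat in contrast. Their medians lay between 8.19 and 8.22, with interquartile ranges of 2.01 and 2.13 in DMSO and of 2.20 and 2.21 in TCDD. Across features, arrays of a group correlated at 0.997 or more and arrays of different groups at 0.989 to 0.994, where features are not independent replicates. DMSO replicate 2 stood farthest from the TCDD arrays. Without DMSO replicate 1 the calls over all features numbered 4661, and without DMSO replicate 2 they numbered 644. Marker lists of cell types and states are given as counts and list means, beside the 9.41% of all features called higher and 8.01% called lower. Mesenchymal-state features had list means of 9.66 and 9.67 in DMSO and 9.84 and 9.86 in TCDD, with 3 of 5 called higher. Neuroblast features had list means of 10.91 and 10.81 in DMSO and 10.93 and 10.94 in TCDD. Of these 6 features 1 was called higher, HAND1 (0.22, limma adjusted p = 0.0486), and 0 lower. Immune-cell features had list means of 7.38 and 7.44 in DMSO and 7.27 and 7.30 in TCDD, with 1 of 11 called lower. At an unadjusted limma p under 0.05, CD2, FCRL5 and CD28 were lower as well, against 16.7% of all features. COL5A2 (mesenchymal state) and ALK (neuroblast) were higher at that p, against 22.8%. The groups did not overlap, with TCDD lower, for 10 of the 11, against 30.9% of all features. Endothelial (4 of 4), glial (2 of 3) and retinal (2 of 5) features were apart and lower as well. Apart and higher were 5 of 5 mesenchymal-state and 4 of 6 neuroblast features, against 40.7%. Neuroblast features had 1 of 6 apart and lower, epithelial ones 1 of 3 each way. Shares at like signal were not computed for these lists. Of 3 glial, 5 retinal, 4 endothelial and 3 epithelial features, 0 were called (at an unadjusted limma p under 0.05, 2 of the glial and 1 of the endothelial ones were lower). All arrays came from the SK-N-SH line, so lists of other cell types were not read as numbers of cells. For the neuroblast and mesenchymal-state lists, a change in the share of cells cannot be told apart from a change of RNA per cell. The part of these lists in the receptor values was not tested.

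The antisense RNAs of GRM7 included the 1 called change at a receptor locus. Antisense RNAs are long non-coding transcripts read from the strand opposite to a gene. GRM7-AS1, which lies within the span of GRM7 in RefSeq, read 8.49 and 8.61 in DMSO, and 8.24 and 8.22 in TCDD. Both TCDD arrays were below both DMSO arrays by more than either pair differed. It fell by 0.32 on the log2 scale (SE 0.060, interval -0.46 to -0.18), to 0.801-fold, with a limma adjusted p of 0.0226. Quantile (-0.32), cyclic loess (-0.33) and median-centred values (-0.31) were also called. The call was lost without DMSO replicate 2 (-0.26, adjusted p = 0.0567), TCDD replicate 1 (-0.33, adjusted p = 0.0506) or TCDD replicate 2 (-0.31, adjusted p = 0.0549), and kept without DMSO replicate 1 (-0.38, adjusted p = 0.0240).

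GRM7 was not called beside GRM7-AS1. Whether the probes of the 2 features tell the strands apart is not given in the sources used here. Within each array, GRM7-AS1 minus GRM7 was -0.19 and -0.073 in DMSO, and -0.45 and -0.41 in TCDD. The difference of these gaps was -0.30 on the log2 scale, with an exact two-sided permutation p of 0.333 (n = 2 arrays a group), the smallest that 2 arrays against 2 can give. GRM7-AS2, also within the span of GRM7, read 6.56 and 6.70 in DMSO, and 6.51 and 6.62 in TCDD. Its groups overlapped, and the difference was -0.068 (SE 0.070, limma adjusted p = 0.487). GRM7-AS3, which lies beside GRM7, read 5.75 and 5.80 in DMSO, and 5.63 and 5.67 in TCDD. Its groups did not overlap, and the difference of -0.12 (SE 0.053, limma adjusted p = 0.135) did not pass. Falls were common among antisense genes: 51 of 272 such features were called (18.8%), 44 lower (16.2%) and 7 higher (2.57%), and 16 of the 44 fell by more than GRM7-AS1.

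The nearest measured gene on each side of every member gave 12 features, of which 1 was called, against the 17.4% called over all features. It was MIR4255, a microRNA gene next to GRIK3, which read 5.999 and 6.249 in DMSO, and 6.55 and 6.66 in TCDD. It rose by 0.48 on the log2 scale (SE 0.091, interval 0.26 to 0.70, limma adjusted p = 0.0237), and by 0.35 to 0.61 with each array left out in turn. MIR4255 was dim, with a mean signal of 6.36, under the median of 7.0 of the olfactory receptor features. It was absent from the fits with the dimmest features removed, so its rise was not tested there. Its mature sequence in RefSeq (GRCh38.p14, chr1:37161573-37161589, plus strand) is printed with the seed, bases 2 to 8, in capitals, since the seed sets which transcripts a microRNA can pair with.
hsa-miR-4255: cAGUGUUCagagaugga
Whether the array feature reads the mature form or its precursor is not given in the sources used here. GLRB, the glycine receptor beta subunit gene beside GRIA2, read 7.63 and 7.56 in DMSO, and 7.77 and 7.79 in TCDD. Both TCDD values were higher, and its difference of 0.18 (SE 0.054, limma adjusted p = 0.0611) did not pass. GASK1B, on the other side of GRIA2, differed by 0.075 (SE 0.050, limma adjusted p = 0.292). Beside GRIA1, FAM114A2 differed by 0.18 (limma adjusted p = 0.0643) and NMUR2, a neuromedin U receptor gene, by -0.072 (adjusted p = 0.562). The GRM2 neighbours TEX264 and IQCF6 differed by 0.12 (limma adjusted p = 0.162) and -0.013 (adjusted p = 0.858). ZFP2 and ZNF879, zinc finger genes beside GRM6, differed by 0.042 (limma adjusted p = 0.596) and 0.13 (adjusted p = 0.134). CSF3R, on the other side of GRIK3, differed by -0.12 (limma adjusted p = 0.121), and LMCD1-AS1, on the far side of GRM7, by -0.026 (adjusted p = 0.729).

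Genes that assemble, anchor, feed and transmit glutamate receptor signals were measured by 58 features of 55 genes, out of 195 listed. Of these features 6 were called higher and 0 lower in TCDD, or 10.3%, against 17.4% of all features, 11.1% of protein-coding features and 9.41% of all features called higher. Their median difference was 0.085, beside 0.066 for protein-coding features and 0.023 for all features. The groups did not overlap for 42 of the 58 features, 34 higher and 8 lower in TCDD, against 40.7% and 30.9% of all features. Among protein-coding features 76.9% did not overlap in either direction, and their split by direction was not computed here. With the dimmest 50% of features removed, calls over the 6746 features left numbered 1295 higher and 418 lower. In that fit 8 of 46 pathway features were called higher and 0 lower. The list of other glutamate receptor genes had 0 members measured here.

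**Figure D3:**
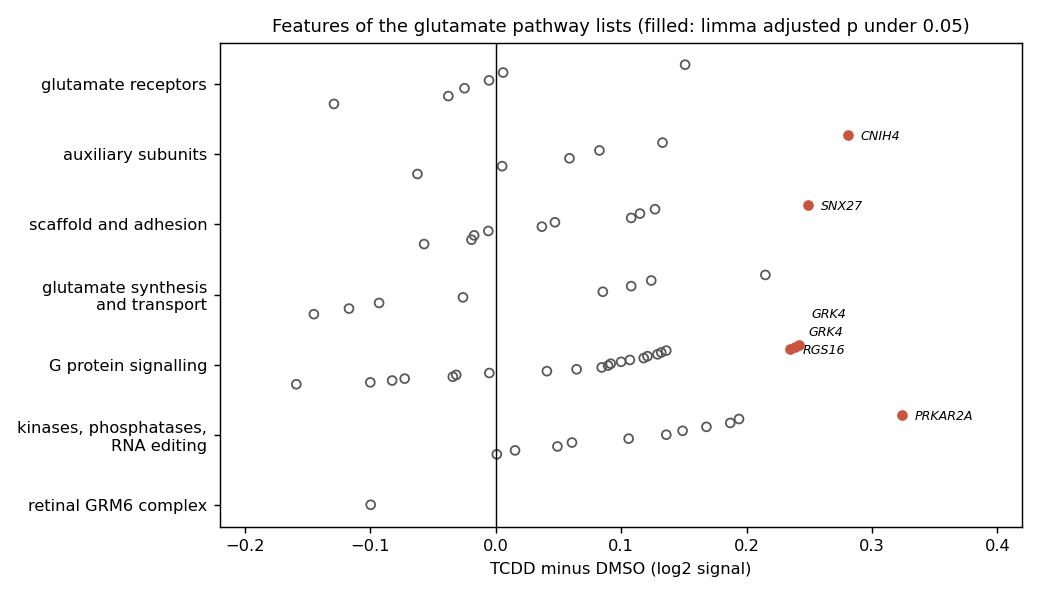
Difference between TCDD and DMSO in log2 signal for each receptor and pathway feature, by list, with filled points for features at a limma adjusted p under 0.05. The 6 filled points all lay above 0.2, in 4 of the lists, and the 6 receptor features lay between -0.13 and 0.15.

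Among 6 features of auxiliary subunits and assembly proteins of AMPA and kainate receptors (list median 0.071), 1 was called higher and 0 lower. It was CNIH4, a cornichon family gene known for export of G protein-coupled receptors from the endoplasmic reticulum, not for AMPA receptor gating. It read 9.16 and 9.04 in DMSO, and 9.38 and 9.39 in TCDD, and rose by 0.28 on the log2 scale (SE 0.060, limma adjusted p = 0.0304). Under quantile normalization the difference was 0.20 and was not called (adjusted p = 0.0601). The cornichon gene CNIH3, whose product does bind AMPA receptors, differed by 0.0051 (limma adjusted p = 0.947). Of 10 scaffold and adhesion features, 1 was called higher and 0 lower (list median 0.042). SNX27, a sorting nexin that returns receptors from endosomes to the surface, read 10.26 and 10.15 in DMSO, and 10.43 and 10.47 in TCDD. It rose by 0.25 (SE 0.060, limma adjusted p = 0.0410), and by 0.11 under quantile normalization and 0.12 after cyclic loess, where it was not called.

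Signalling genes held the other calls. Of 22 features of G protein signalling, 3 were called higher and 0 lower (list median 0.091), against 9.41% of all features called higher. They were both features of GRK4, a kinase that desensitises G protein-coupled receptors, and RGS16, which speeds the shut-off of inhibitory G proteins. The brighter GRK4 feature read 8.203 and 8.131 in DMSO, and 8.42 and 8.40 in TCDD, and rose by 0.24 (SE 0.054, limma adjusted p = 0.0333). The dimmer one rose by 0.24 as well (SE 0.060, limma adjusted p = 0.0443). It was not called under quantile normalization (0.30, adjusted p = 0.0664), after cyclic loess (0.31, adjusted p = 0.0531), with a trended robust prior (adjusted p = 0.0574) or with array weights (adjusted p = 0.0614). RGS16 read 9.62 and 9.58 in DMSO, and 9.80 and 9.86 in TCDD, and rose by 0.24 (SE 0.053, limma adjusted p = 0.0353), but by 0.11 under quantile normalization and 0.12 after cyclic loess, where it was not called. The potassium channel gene KCNJ9, a target of inhibitory G proteins, differed by -0.16 (limma adjusted p = 0.0808).

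Of 11 features of kinases, phosphatases and RNA editing enzymes, 1 was called higher and 0 lower, and the list median was 0.14. PRKAR2A, a regulatory subunit of protein kinase A, read 9.59 and 9.47 in DMSO, and 9.86 and 9.85 in TCDD. It rose by 0.32 (SE 0.060, limma adjusted p = 0.0223), and by 0.21 under quantile normalization and after cyclic loess, still called. ADAR, an RNA editing enzyme, differed by 0.17 (limma adjusted p = 0.0755). Of 8 features of glutamate synthesis and transport, 0 were called by limma, with 2 at an unadjusted p under 0.05. These were the cystine and glutamate exchanger gene SLC7A11 (0.22, SE 0.066, adjusted p = 0.0686) and the glutamate transporter gene SLC1A7 (-0.15, SE 0.051, adjusted p = 0.0913), which was called after cyclic loess (-0.21). Both were called without DMSO replicate 1, SLC7A11 at 0.28 (adjusted p = 0.0365) and SLC1A7 at -0.17 (adjusted p = 0.0472). The 1 measured gene of the retinal complex of GRM6, LRIT3, differed by -0.10 (SE 0.050, limma adjusted p = 0.186). None of the 6 pathway calls held without DMSO replicate 2 or without TCDD replicate 1, and 1, PRKAR2A, held without TCDD replicate 2.

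Likeness of profile was measured over the 4 arrays as the root mean square difference from each member after centring. Between 528 and 1663 of 5226 other protein-coding features lay within 0.05 of a member, so many genes share these nearly flat profiles. The nearest to GRIA2 were NAP1L5 (0.0047), a nucleosome assembly gene, and NSUN3 (0.0068), an RNA methyltransferase gene. Those nearest to GRIA1 were GABRA6 (0.0059), a GABA-A receptor subunit gene, and CLDN24 (0.0062). SLC45A1 (0.0017) and ADAMTS4 (0.0034) were nearest to GRIK3, and DCST2 (0.0038) and C1QA (0.0045) to GRM2. MXRA8 (0.0012) and TRIM46 (0.0037) were nearest to GRM6, and OTOS (0.0040) and GZMA (0.0071) to GRM7.

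**Figure D4:**
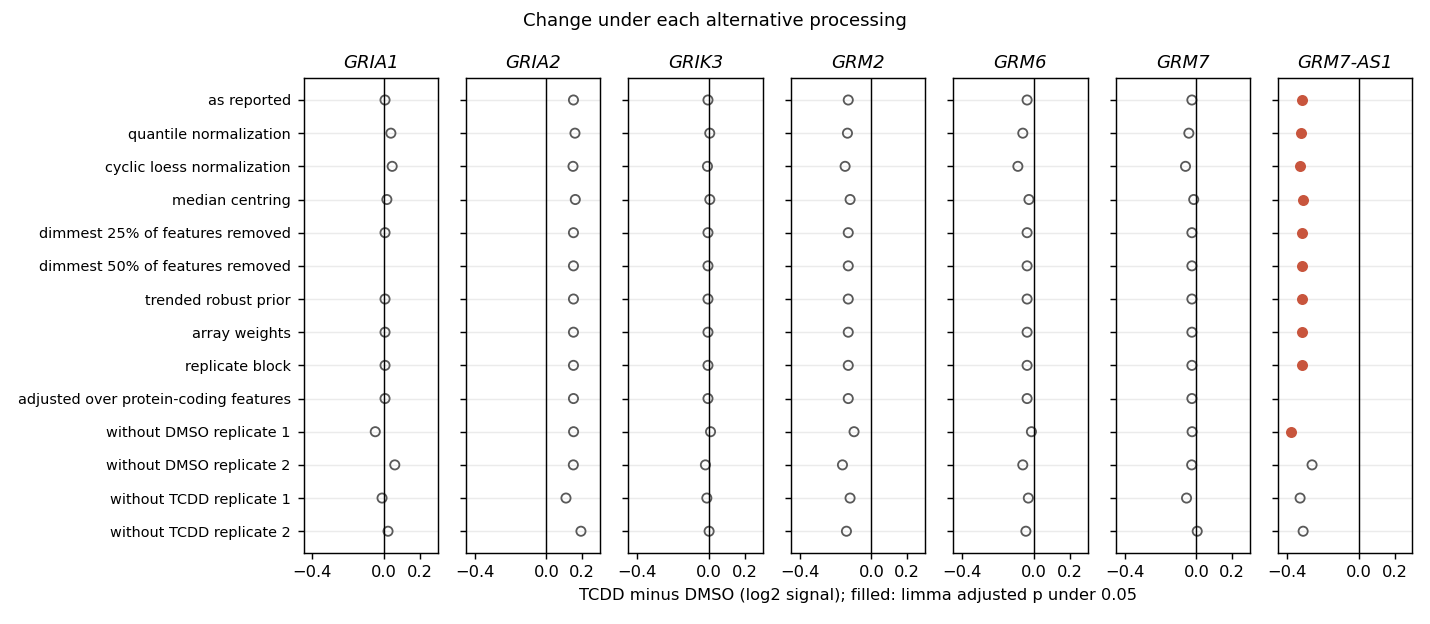
Difference between TCDD and DMSO in log2 signal for the 6 glutamate receptor features and GRM7-AS1 under the reported fit and each alternative, with filled points where the limma adjusted p was under 0.05. The receptor points are open throughout, and GRM7-AS1 is open in 3 of the 4 fits with an array left out; a missing point means that the feature was not in that fit.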

How the data were processed

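RNA of 4 SK-N-SH samples was hybridised, 2 arrays a group, and groups came from the titles. The deposited values are log2 signals from RMA run by the authors, as the submitters' processing notes list it. Its version and settings, the summary level and the genome build are not given in the sources used here. Why the arrays differ in contrast was not tested. Of 13493 features, 6647 had 1 gene symbol, updated through RefSeq (GRCh38.p14). Differences were fitted over all features with limma 3.58.1 in R 4.3.3 (lmFit and eBayes, 2 residual and 4.27 prior degrees of freedom), two-sided, with Benjamini-Hochberg adjustment and calls at an adjusted p under 0.05. The functions were tested on simulated data. The number of arrays limits the precision. Alternatives were quantile, cyclic loess and median scaling, removal of the dimmest 25% or 50% of features, other priors, array weights, a replicate block, adjustment over protein-coding features, a 1.2-fold rule and left-out arrays.

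The members and lists were chosen with earlier results of these data known. Named were all features of members and their antisense genes, called pathway features (in lists with none, the 2 with the smallest p), the nearest measured genes on each side and the 2 most similar profiles. Other names (CNIH3, KCNJ9, ADAR and the markers) were chosen after their values were seen.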

Additional observations from a re-analysis of the deposited data

How the results depend on the processing

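The count of called glutamate receptor features was 0 under every alternative run, and the differences of GRIA2, GRM2 and GRM6 kept their sign in all of them. GRIK3 turned to 0.0046 under quantile normalization and 0.0049 under median centring, and GRM7-AS2 to 0.0034 after cyclic loess. Leaving out 1 array gave ranges of -0.049 to 0.061 for GRIA1, -0.020 to 0.0090 for GRIK3, -0.055 to 0.0049 for GRM7 and -0.14 to 0.0013 for GRM7-AS2. The causes were not tested.

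Calls over all features numbered 2351, and 1478 under quantile normalization, 644 to 4661 with 1 array left out, and 2 when adjusted over protein-coding features alone. With the replicate number as a block they numbered 3634. The labels do not say that a number pairs arrays, and same-numbered deviations correlated at 0.037. The 6 pathway calls became 2 under quantile normalization, 2 under the 1.2-fold rule, 0 adjusted over protein-coding features, and 0 to 17 with 1 array left out. After cyclic loess there were 4 higher and 2 lower, of which 3 were among the 6. Under the replicate block there were 8, all 6 among them, with SLC7A11 (0.22, adjusted p = 0.0266) called as well.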
